A study of Caenorhabditis elegans with 8 samples.

Results

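Nematodes grow through a series of larval molts, in which the epidermis makes a new cuticle under the old one and the old one is then shed. Genes for molting are transcribed in waves that recur with each cycle, under regulators that include NHR-23, a nuclear receptor related to the mammalian ROR receptors. Embryos also make a first cuticle and an apical matrix that holds the body during elongation. The mRNA levels of 7 *C. elegans* genes with a part in these processes were examined here. They are *mlt-8*, *mlt-10*, *mlt-11*, *noah-1*, *noah-2*, *lrp-1* and *qua-1*, which were taken by sequence name from a table of 20389 genes.

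The larvae (n = 4 libraries) had hatched overnight and then spent 24 hours on plates. They are labelled L3, and the study's methods give L2/L3. The embryos (n = 4 libraries) were a mixed collection released by bleaching from asynchronous parents. All 8 libraries were poly(A)-selected RNA of whole worms of strain VC199, genotype sir-2.1(ok434) IV, so both stages carried the deletion allele of *sir-2.1*, and no wild-type library was analysed here. The study's methods call the replicates biological, but the labels do not say that they came from separate cultures, so the p-values measure the spread between these libraries. In whole worms, fewer cells of a type and less RNA per cell cannot be told apart.

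The larvae libraries held 13687095 to 22419153 gene counts and the embryo libraries 16300947 to 31292935, and larvae replicate 1 was the shallowest of the 8. Larvae replicate 2 and embryo replicate 1 were the deepest of their stages. The label of each joins 2 codes, and the labels do not say what this means. Reads from the *sir-2.1* locus were present in every library, at 13.7 to 17.4 TPM (the authors' length-scaled transcript level) in larvae and 35.8 to 38.6 TPM in embryos. Where in the gene those reads fell cannot be seen from gene counts. The stage labels were checked against marker genes. The summed level of 5 maternal genes was 6.61 to 12.9 TPM in larvae and 560 to 971 TPM in embryos, and that of 4 larval cuticle collagens was 1262 to 2968 TPM in larvae and 188 to 245 TPM in embryos. Of these, 5 of 5 maternal genes were lower and 3 of 4 cuticle collagens, all but *dpy-7*, higher in larvae by the stage test below. The 3 epidermal regulators *lin-26*, *elt-1* and *elt-3*, which mark the tissue that makes cuticle, summed to 94.8 to 111 TPM in larvae and 293 to 417 TPM in embryos, and 3 of 3 were lower in larvae. Adult markers summed to 12.6 TPM in larvae replicate 1 and 1.68 to 4.64 TPM in the other larvae, against 43.2 TPM in embryo replicate 2 and 0.384 to 5.19 TPM in the other embryos. Of the other markers, 2 of 2 body-wall muscle genes, 3 of 3 neuronal genes, 1 of 2 intestinal genes and 1 of 2 germline genes were higher in larvae, and 0 of 3 adult genes tested were called. The part of these cell type and adult markers in the levels below was not tested.

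The 7 genes are all protein-coding and lie on 4 chromosomes. Positions are 1-based and in build WS220, and exons and coding lengths come from the WBcel235 annotation. *mlt-8* (W08F4.6) is on chromosome II from 569268 to 572111, with up to 4 exons and a coding sequence of 268 codons, stop codon included. *mlt-10* (C09E8.3) lies on the same chromosome from 546704 to 552025, 17242 bases from *mlt-8* and on the opposite strand, with up to 8 exons and 690 codons. It overlaps *lips-7* and T27A1.3 on its own strand, which had 81 to 542 and 0 to 165 counts in the 8 libraries, and reads shared with them cannot be assigned from gene counts.

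*mlt-11* (W01F3.3, chromosome V, 20667180 to 20678643) has 8 annotated transcripts, up to 16 exons and 3129 codons in the longest. It overlaps W01F3.4 and W01F3.5 on its own strand in that annotation. *noah-1* (C34G6.6, chromosome I, 5874425 to 5878957) has 3 transcripts, up to 8 exons and 1052 codons, and *noah-2* (F52B11.3, chromosome IV, 14091229 to 14096599) has 5 exons and 741 codons. *lrp-1* (F29D11.1, chromosome I, 7614172 to 7634139) is the longest of the 7 in the genome and in coding sequence, with 27 exons and 4753 codons. *qua-1* (T05C12.10, chromosome II, 8198752 to 8203954) has 11 exons and 1169 codons. *noah-2* overlaps 21ur-11897 on its own strand. No exon of the 7 overlapped an exon of a gene on the other strand.

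Across all genes, the stages differed widely. Of the 13571 genes that passed the filter on low counts, 74.1% were called by edgeR's quasi-likelihood test at an adjusted p under 0.05, with 36.9% higher and 37.2% lower in larvae. Of the 7 molting genes, all of which passed the filter, 1 was called, and it was higher. CPM, counts scaled to a common library size after adjustment by the trimmed mean of M-values (TMM), was used to compare a gene between libraries, and TPM, which is per transcript length, to compare genes with each other. The choice of scale matters for direction. Over all genes the median log2 fold change was -0.03 with TMM, -0.53 with library totals alone and -0.82 for log2(TPM + 1) tested with limma. With these scalings 5004 genes were higher and 5054 lower (TMM), 3683 higher and 6607 lower (totals), and 2816 higher and 7612 lower (TPM). A TPM that is lower in larvae can therefore stand at or above the shift of all genes.

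*qua-1* encodes a protein of the hedgehog-related family that is required for molting. Its level was 848, 193, 321 and 235.4 CPM in larvae replicates 1 to 4, against 101, 82.0, 80.9 and 84.7 CPM in embryo replicates 1 to 4. Every larvae library was above every embryo library, and *qua-1* was the only gene of the 7 whose stages did not overlap, whereas 69.0% of all genes tested did not overlap, 33.3% with larvae higher and 35.6% with larvae lower. The log2 fold change was 2.198 (SE 0.404, adjusted p = 0.00038), a 4.59-fold difference with a 95% interval of 2.49 to 8.46. Without larvae replicate 1, the highest library, it was 1.52 (SE 0.191, adjusted p = 1.08e-05). *qua-1* also stood higher in larvae in TPM, at 131, 32.4, 46.5 and 34.3 TPM in larvae against 30.5, 22.4, 21.3 and 22.6 TPM in embryos.

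*noah-1* and *noah-2* encode zona pellucida domain proteins of the apical matrix and are related to *nompA* of *Drosophila*. *noah-1* had 2527, 311, 581 and 716 CPM in larvae, against 1111, 1323, 1130 and 1178 CPM in embryos. *noah-2* had 2097, 248, 516 and 622 CPM in larvae, against 959, 1157, 1294 and 1210 CPM in embryos. For both genes, larvae replicate 1 lay above all 4 embryo libraries in CPM and the other 3 larvae libraries lay below all 4. In TPM this held for *noah-1*, whereas *noah-2* in larvae replicate 1 (507 TPM) lay within the embryo range of 459 to 537 TPM.

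With all 8 libraries neither gene passed the test. The log2 fold change was -0.20 for *noah-1* (SE 0.496, 95% interval -1.28 to 0.89, adjusted p = 0.731) and -0.41 for *noah-2* (SE 0.496, 95% interval -1.49 to 0.68, adjusted p = 0.472). Without larvae replicate 1, both were called lower in larvae. *noah-1* then had a log2 fold change of -1.15 (SE 0.253, adjusted p = 0.00111) and *noah-2* of -1.32 (SE 0.275, adjusted p = 0.000718), in a fit that called 37.9% of 13829 genes lower. This was 1 of 8 fits that each left out 1 library.

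*mlt-11* encodes a protein with Kunitz-type protease inhibitor domains. It had 4620.1, 546, 1194 and 1501 CPM in larvae, against 1030, 1221, 1373 and 1178 CPM in embryos. In CPM, larvae replicates 1 and 4 were above all embryos, replicate 2 was below all embryos, and replicate 3 fell among them. In TPM, only larvae replicate 1 (308 TPM) was above all embryos (163 to 188 TPM). Larvae replicates 2 to 4 were below all embryos, at 39.6, 74.9 and 94.7 TPM. The log2 fold change was 0.71 (SE 0.491, 95% interval -0.36 to 1.78, adjusted p = 0.207). Leaving out larvae replicate 2, the lowest, brought *mlt-11* past the threshold at 1.02 (adjusted p = 0.034), whereas leaving out larvae replicate 1 gave -0.16 (adjusted p = 0.625). Both were among the 8 fits that each left out 1 library. The fit without larvae replicate 2 called 4816 of 13714 genes higher in larvae. *mlt-11* was also the gene whose counts and TPM differed most between stages. With CPM taken by library totals alone, without TMM, CPM per TPM was 12.7 ± 0.37 in larvae and 8.23 ± 0.27 in embryos (SD, n = 4 each), 1.55 times as much in larvae, against 1.27 to 1.33 times for the other 6 genes on the same scale, and how the deposited TPM treated its 8 transcripts was not tested.

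*lrp-1* encodes a large endocytic receptor of the epidermis, related to mammalian megalin, that takes up sterols and is needed to shed the old cuticle. Its level was 840 CPM in larvae replicate 1 and 346, 349 and 422 CPM in larvae replicates 2 to 4, against 438, 396, 260 and 341 CPM in embryos. In CPM, only larvae replicate 1 was outside the embryo range. In TPM, larvae replicate 1 (32.6 TPM) was within the embryo range of 17.3 to 33.4 TPM. Larvae replicates 2 to 4 were below that range, at 14.6, 12.7 and 15.4 TPM. The log2 fold change was 0.45 (SE 0.288, 95% interval -0.18 to 1.08, adjusted p = 0.178), and without larvae replicate 1 it was 0.05 (SE 0.198, adjusted p = 0.827).

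*mlt-8* and *mlt-10* are both required for molting, and *mlt-10* encodes a secreted epidermal protein whose promoter is widely used to report the molting cycle. *mlt-8* had 369, 104, 234 and 117 CPM in larvae, against 181, 190, 148 and 181 CPM in embryos. *mlt-10* had 287, 163, 301 and 184 CPM in larvae, against 218, 156, 267 and 173 CPM in embryos. In CPM, larvae replicates 1 and 3 were above every embryo library in both genes. For *mlt-8* the other larvae were below every embryo, and for *mlt-10* they fell within the embryo range. In TPM, *mlt-8* was above every embryo only in larvae replicate 1 (311 TPM) and below every embryo in the other larvae. *mlt-10* in TPM was within the embryo range in larvae replicates 1 and 3 and below it in replicates 2 and 4. The log2 fold changes were 0.24 for *mlt-8* (SE 0.34, 95% interval -0.51 to 0.98, adjusted p = 0.541) and 0.20 for *mlt-10* (SE 0.239, 95% interval -0.33 to 0.72, adjusted p = 0.468).

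**Figure D1:**
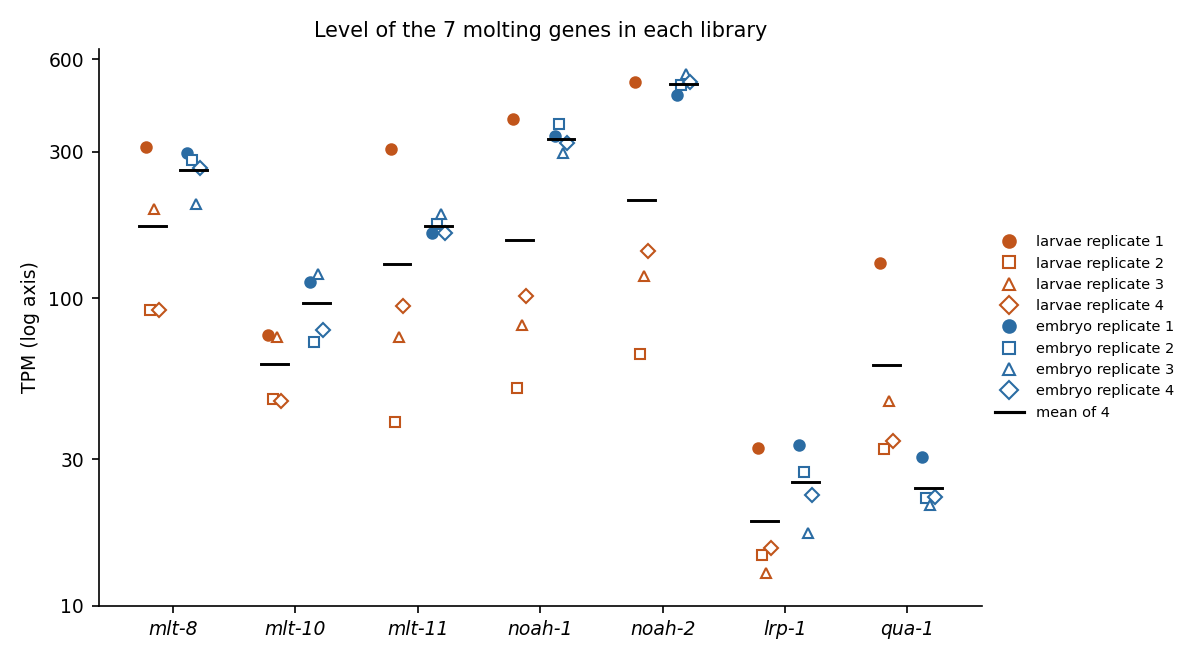
Level of each gene in TPM on a log axis, with 1 marker per library, larvae (orange) to the left of embryos (blue), and a bar at the mean of 4 libraries. Larvae replicate 1 (filled orange circle) had 383 TPM of *noah-1* and the other larvae 50.9 to 102 TPM, whereas the 4 embryos lay between 297 and 371 TPM.

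On the TPM scale, the order of the 7 genes was steadier in embryos than in larvae. In larvae, the mean levels were 209 TPM for *noah-2*, 172 TPM for *mlt-8*, 155 TPM for *noah-1*, 129 TPM for *mlt-11*, 61.1 TPM for *mlt-10*, 60.9 TPM for *qua-1* and 18.9 TPM for *lrp-1*. The ranges of all 6 neighbouring pairs in this order overlapped. Within single larvae libraries, *noah-1* was above *mlt-11* and *qua-1* above *lrp-1* in 4 of 4. *mlt-10* was above *qua-1* in 3 of 4, and the remaining pairs kept this order in 2 of 4. In embryos, the mean levels were 500.2 TPM for *noah-2*, 332 TPM for *noah-1*, 262 TPM for *mlt-8*, 172 TPM for *mlt-11*, 96.3 TPM for *mlt-10*, 25.2 TPM for *lrp-1* and 24.2 TPM for *qua-1*. There, the ranges of 2 neighbouring pairs overlapped, *noah-1* with *mlt-8* and *lrp-1* with *qua-1*.

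*lrp-1* and *qua-1* changed places between stages. *qua-1* was above *lrp-1* in 4 of 4 larvae, and *lrp-1* was above *qua-1* in 3 of 4 embryos. Larvae replicates 2 and 3 had *mlt-8* as the most abundant of the 7, while larvae replicates 1 and 4 and all 4 embryos had *noah-2*. *noah-1* was never the most abundant.

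The makeup of the 7 genes was then compared, as the share of each in their summed TPM, a measure that does not depend on library scaling. The sum was 1749, 342, 605 and 527 TPM in larvae, against 1434, 1447, 1385 and 1383 TPM in embryos. *noah-2* took 29.01%, 19.3%, 19.5% and 27.1% of the sum in larvae, against 32.0%, 34.4%, 38.8% and 36.7% in embryos. *qua-1* took 7.47%, 9.46%, 7.69% and 6.50% in larvae, against 2.13%, 1.55%, 1.54% and 1.63% in embryos. The shares of both genes did not overlap between stages, also with larvae replicate 1 included.

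The mean share of *noah-2* was 23.7% ± 5.06 in larvae and 35.5% ± 2.95 in embryos, a difference of -11.7 percentage points (SD, n = 4 each, two-sided exact permutation test p = 0.0286, adjusted over 7 genes p = 0.1). The mean share of *qua-1* was 7.78% ± 1.24 in larvae and 1.71% ± 0.28 in embryos, a difference of 6.07 points (SD, n = 4 each, exact p = 0.0286, adjusted p = 0.1). The smallest p that 4 libraries against 4 can give is 0.0286, so no share could pass after adjustment unless several genes reached it. *noah-1* took 17.4% ± 3.88 in larvae and 23.5% ± 1.71 in embryos (SD, n = 4 each, exact p = 0.0571, adjusted p = 0.133), and the exact p-values of the other 4 genes were 0.171 to 0.314. No share passed the adjusted threshold. Shares of summed counts, which are not scaled for length, did not pass by the same test either. There, the adjusted p was 0.0667 for *noah-1*, *noah-2* and *qua-1*. The difference for *mlt-11* was 8.08 points (adjusted p = 0.1) with counts and 2.66 points (adjusted p = 0.3) with TPM.

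**Figure D2:**
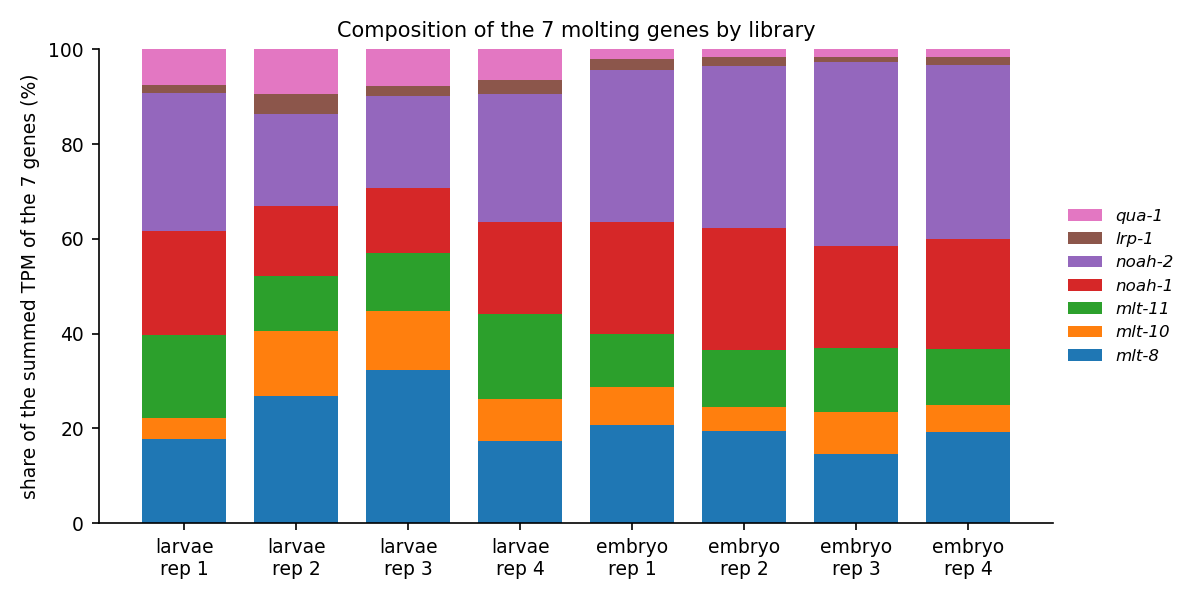
Share of each gene in the summed TPM of the 7 genes, in percent, with 1 stacked bar per library and larvae to the left of embryos. *noah-2* (purple) took 19.3% to 29.01% in larvae and 32.0% to 38.8% in embryos, and *qua-1* (top, pink) took 6.50% to 9.46% in larvae and 1.54% to 2.13% in embryos.

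The 7 genes varied more between larvae libraries than between embryo libraries, and this difference in spread was not tested. The ratio of the highest to the lowest library was 8.47 in larvae and 1.33 in embryos for *mlt-11*, the lowest and highest values being 546 and 4620.1 CPM in larvae. For *noah-2* it was 8.45 in larvae and 1.35 in embryos, and for *noah-1* it was 8.14 in larvae and 1.19 in embryos. *qua-1* had a ratio of 4.39 in larvae and 1.24 in embryos, and *mlt-8* had 3.53 in larvae and 1.29 in embryos. *lrp-1* had 2.43 in larvae and 1.68 in embryos, and *mlt-10* had 1.84 in larvae and 1.72 in embryos. Over all genes with a mean of at least 1 CPM in a stage, the median ratio was 1.58 in larvae and 1.5 in embryos, and it was above 2 for 28.7% of 12209 genes in larvae and 15.3% in embryos. The ratios of *mlt-11*, *noah-2* and *noah-1* were above those of 98.2% to 98.4% of these genes in larvae, and that of *mlt-10* was above 65.4%. Counting error was small beside these ratios, since the 7 genes had 1450 to 53905 counts per library, with a Poisson error of 2.63% at the lowest and 0.431% at the highest.

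**Figure D3:**
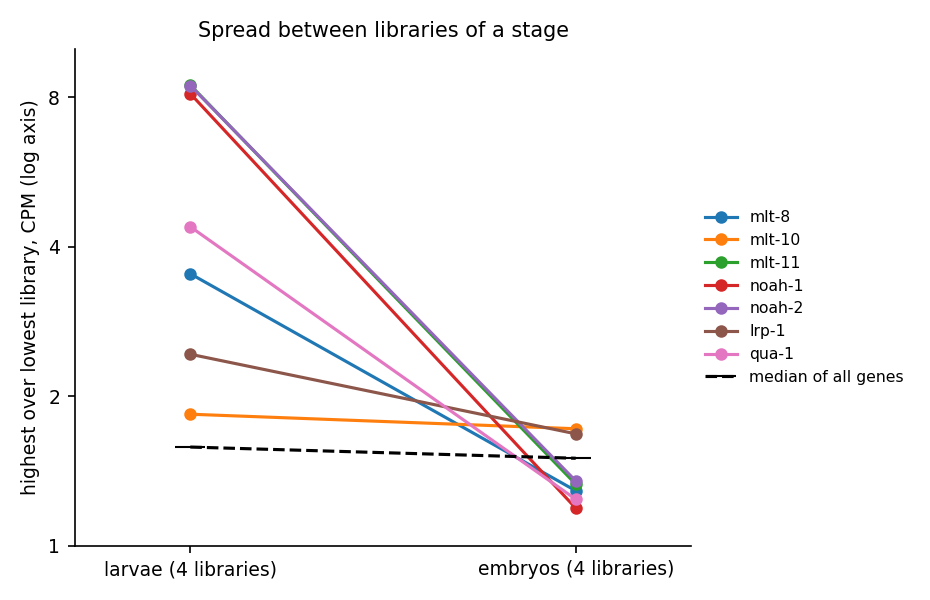
Ratio of the highest to the lowest library in CPM, on a log axis, for the 4 larvae libraries (left) and the 4 embryo libraries (right), with lines joining the values of a gene and a dashed line for the median of all genes. All 7 genes lay above the median of 1.58 in larvae, and 5 of them lay below the median of 1.5 in embryos.

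The 7 genes shared much of their order among the larvae. Larvae replicate 1 was highest for 6 of 7 genes, the exception being *mlt-10*, which was highest in replicate 3. Larvae replicate 2 was lowest for 7 of 7 genes. Over all genes with a mean of at least 1 CPM in larvae, replicate 1 was highest for 24.6% and replicate 2 lowest for 20.4%. Together the 7 genes took 0.988%, 0.1704%, 0.289% and 0.304% of the gene counts in larvae replicates 1 to 4, against 0.529%, 0.519%, 0.501% and 0.519% in embryo replicates 1 to 4.

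The level in larvae replicate 1, divided by the mean of the other larvae, was 4.72 for *noah-1*, 4.54 for *noah-2* and 4.28 for *mlt-11*. It was 3.39 for *qua-1*, 2.43 for *mlt-8*, 2.26 for *lrp-1* and 1.33 for *mlt-10*, and the median of all genes was 0.951. Larvae replicate 1 was also the shallowest library, and its TMM factor of 0.853 was within the range of 0.802 to 0.892 of the other larvae. The other 3 larvae still differed, by 2.75-fold for *mlt-11*, 2.51-fold for *noah-2* and 2.31-fold for *noah-1*, but by 1.22-fold for *lrp-1*.

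Beyond the shared extremes, the order of replicates 3 and 4 divided the genes. *mlt-11*, *noah-1*, *noah-2* and *lrp-1* were higher in larvae replicate 4 than in replicate 3, and *mlt-8*, *mlt-10* and *qua-1* were higher in replicate 3 than in replicate 4. For *mlt-8* this gap was 234 CPM in replicate 3 and 117 CPM in replicate 4, while for *lrp-1* it was 349 CPM in replicate 3 and 422 CPM in replicate 4. The ratio of *noah-2* to *noah-1* in TPM was 1.3 to 1.44 in single larvae libraries and 1.34 to 1.81 in single embryo libraries. Its mean was 1.36 ± 0.0647 in larvae and 1.52 ± 0.22 in embryos (SD, n = 4 each, exact permutation test p = 0.257, adjusted over 2 ratios p = 0.514). The ratio of *mlt-8* to its neighbour *mlt-10* varied within both stages and was 2.65 ± 1.0 in larvae and 2.89 ± 0.958 in embryos (SD, n = 4 each, exact p = 0.743, adjusted p = 0.743).

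Genes with a like pattern over the 4 larvae were ranked by the root mean square difference between their log2 deviations and the median deviation of the 7 genes. The 7 genes themselves had distances of 0.226 to 0.637, with *qua-1* nearest and *mlt-10* farthest. Of 12202 other genes, 1476 were within 0.637 and 226 (1.85%) were within 0.342, the median distance of the 7. The 8 nearest genes with a mean of at least 10 CPM were *ztf-30*, Y54F10AM.6, F23H12.5, Y43F4A.1, F46G11.2, F59B10.6, *subs-4* and Y22D7AL.9, with distances of 0.0457 to 0.119. In all 8 the order was replicate 1, 4, 3 and 2 from high to low, and *ztf-30* had 23.3, 4.90, 7.67 and 8.02 CPM in larvae replicates 1 to 4. With 4 libraries, this is a description of shape only.

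**Figure D4:**
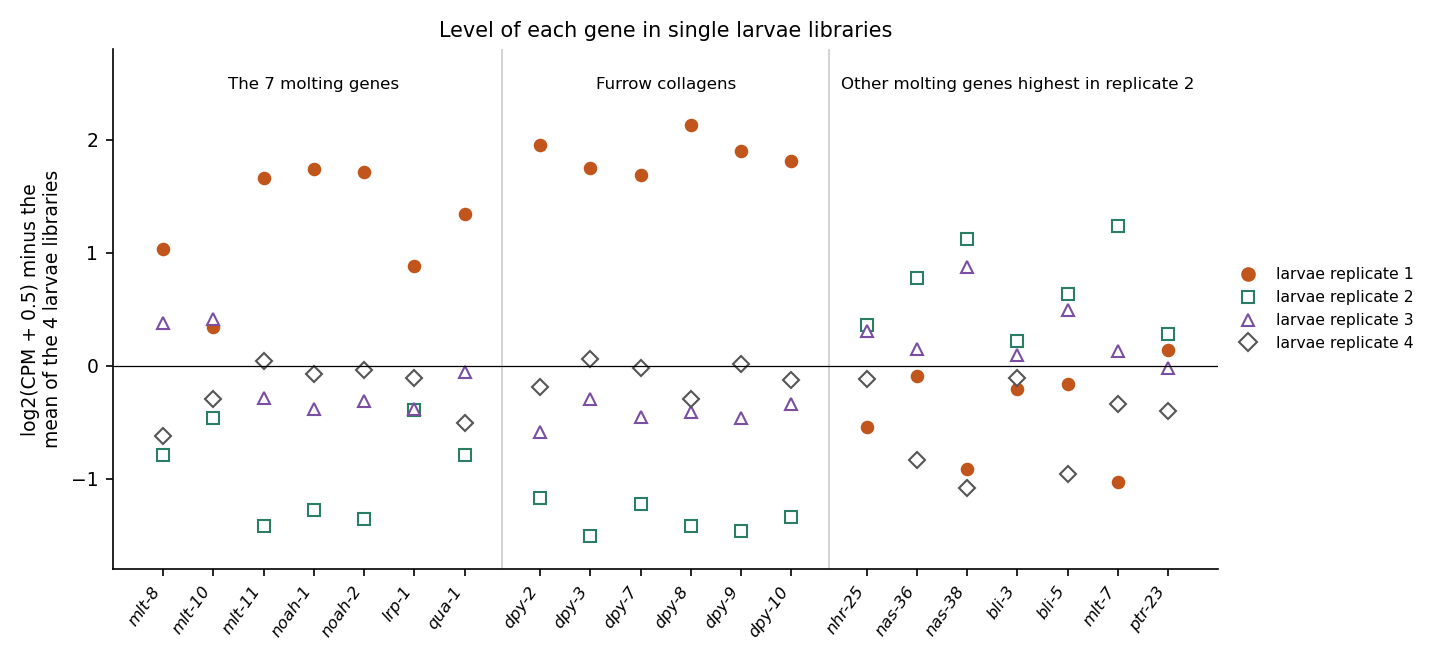
Deviation of each larvae library from the mean of the 4 larvae libraries, as log2(CPM + 0.5), with 1 column per gene and 1 marker per library. Replicate 1 (filled circle) was 1.74 above and replicate 2 (square) 1.28 below the mean for *noah-1*, whereas replicate 2 was 1.24 above and replicate 1 1.03 below it for *mlt-7*.

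The 31 other molting genes, a list of regulators, trafficking factors, enzymes, patched-related proteins and matrix proteins, gave a mixed picture. Of the 31, all tested, 15 were higher in larvae, 1 was lower and 15 did not pass, with a median log2 fold change of 0.40 against -0.03 over all genes and 0.24 over the 7. Over all genes tested, 36.9% were higher and 37.2% lower. The rises lay mostly among the enzymes, of which 8 of 9 were higher, and 0 of 5 matrix and membrane proteins were called in either direction. With library totals alone, 12 of the 31 were higher and 7 lower, where 27.1% of all genes were higher and 48.7% lower. With limma on log2(TPM + 1), 6 were higher and 13 lower, where 21.4% of all genes were higher and 57.9% lower. Among the rest with TMM, 3 of 6 trafficking factors, 2 of 5 patched-related proteins and 2 of 6 regulators were higher.

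*nas-37*, an astacin metalloprotease that opens the old cuticle at the molt, had the largest rise. It had 2110, 585, 619 and 623 counts in larvae, against 16, 18, 5 and 1 counts in embryos, a log2 fold change of 7.58 (SE 0.778, adjusted p = 3.63e-06) measured against few embryo reads. Without larvae replicate 1 it was 6.601 (SE 0.428, adjusted p = 2.84e-08). *mlt-7*, a peroxidase that cross-links cuticle collagens, had 57.3, 277, 129 and 92.3 CPM in larvae, against 18.7, 9.44, 17.8 and 10.1 CPM in embryos (log2 fold change 3.31, SE 0.455, adjusted p = 3.9e-05). *nas-36*, another astacin protease of the molt, rose by 2.66 on the log2 scale (SE 0.352, adjusted p = 2.87e-05), and all larvae were above all embryos for these 3 genes.

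*nhr-25*, a nuclear receptor related to *Drosophila* Ftz-F1, was the only gene of the list that was lower in larvae. It had 32.5, 61.3, 59.0 and 43.8 CPM in larvae, against 105, 113, 135 and 104 CPM in embryos (log2 fold change -1.22, SE 0.207, adjusted p = 0.00021). *lin-42*, the worm homolog of Period, had 1115, 272, 627 and 483 CPM in larvae, against 157, 170, 346 and 240 CPM in embryos (log2 fold change 1.45, SE 0.387, adjusted p = 0.00489), and 1 larvae library fell within the embryo range. *nhr-23* had 137, 37.4, 40.1 and 74.3 CPM in larvae, against 55.5, 59.0, 77.5 and 49.3 CPM in embryos, and did not pass (log2 fold change 0.25, SE 0.36, adjusted p = 0.536). *dab-1*, which encodes the adaptor that binds the tail of LRP-1, did not pass either (log2 fold change 0.18, SE 0.227, adjusted p = 0.489).

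Without larvae replicate 1, 14 of the 31 were higher and 8 were lower in larvae, in a fit that called 37.0% of all genes higher and 37.9% lower, so the lower calls were not more frequent than over all genes. The 8 were *nhr-25*, *grh-1*, *acn-1*, *che-14*, *ptr-4*, *fbn-1*, *let-653* and *mlt-9*, named after their values were seen, and *nhr-25* was the only one of them called with all 8 libraries. Of the 31, 21 (67.7%) were highest in larvae replicate 1 and 14 (45.2%) lowest in larvae replicate 2. The same held for 24.6% and 20.4% of all genes with a mean of at least 1 CPM in larvae. In contrast to the 7 genes, *mlt-7*, *nas-36*, *nas-38*, *bli-3*, *bli-5*, *ptr-23* and *nhr-25* were highest in larvae replicate 2. Replicate 2 was therefore not low for every gene of the molt. Among these, *bli-3* and *ptr-23* varied only 1.35- and 1.61-fold between larvae libraries, where the median of all genes was 1.58. *mlt-7*, *nas-36*, *nas-38* and *bli-5* varied 3.3- to 4.83-fold and *nhr-25* 1.89-fold, and *bli-5* had only 10 to 58 counts. The share of all genes highest in replicate 2 was not computed.

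The 6 furrow collagens, cuticle collagens secreted early in each molting cycle, had ratios of the highest to the lowest larvae library of 7.52 to 11.8. All 6 were highest in larvae replicate 1, at 4.51 to 6.81 times the mean of the other larvae, and lowest in larvae replicate 2. *dpy-8* and *dpy-9* were higher in larvae (log2 fold changes 8.23 and 6.92, SE 0.848 and 0.728, adjusted p = 3.76e-06 and 4.45e-06), with 23 to 85 and 39 to 54 counts in embryos. Without larvae replicate 1 their log2 fold changes were 6.94 and 5.86 (SE 0.334 and 0.338, adjusted p = 3.04e-09 and 1.08e-08). *dpy-2*, *dpy-3*, *dpy-7* and *dpy-10* did not pass with all 8 libraries (adjusted p = 0.472 to 0.932), in a fit that called 36.9% of all genes higher and 37.2% lower. All 4 were lower in larvae without larvae replicate 1 (adjusted p = 0.000251 to 0.0458), in a fit that called 37.0% of all genes higher and 37.9% lower. This was 1 of 8 fits that each left out 1 library, and it dropped the library that was highest for all 6 collagens.

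**Figure D5:**
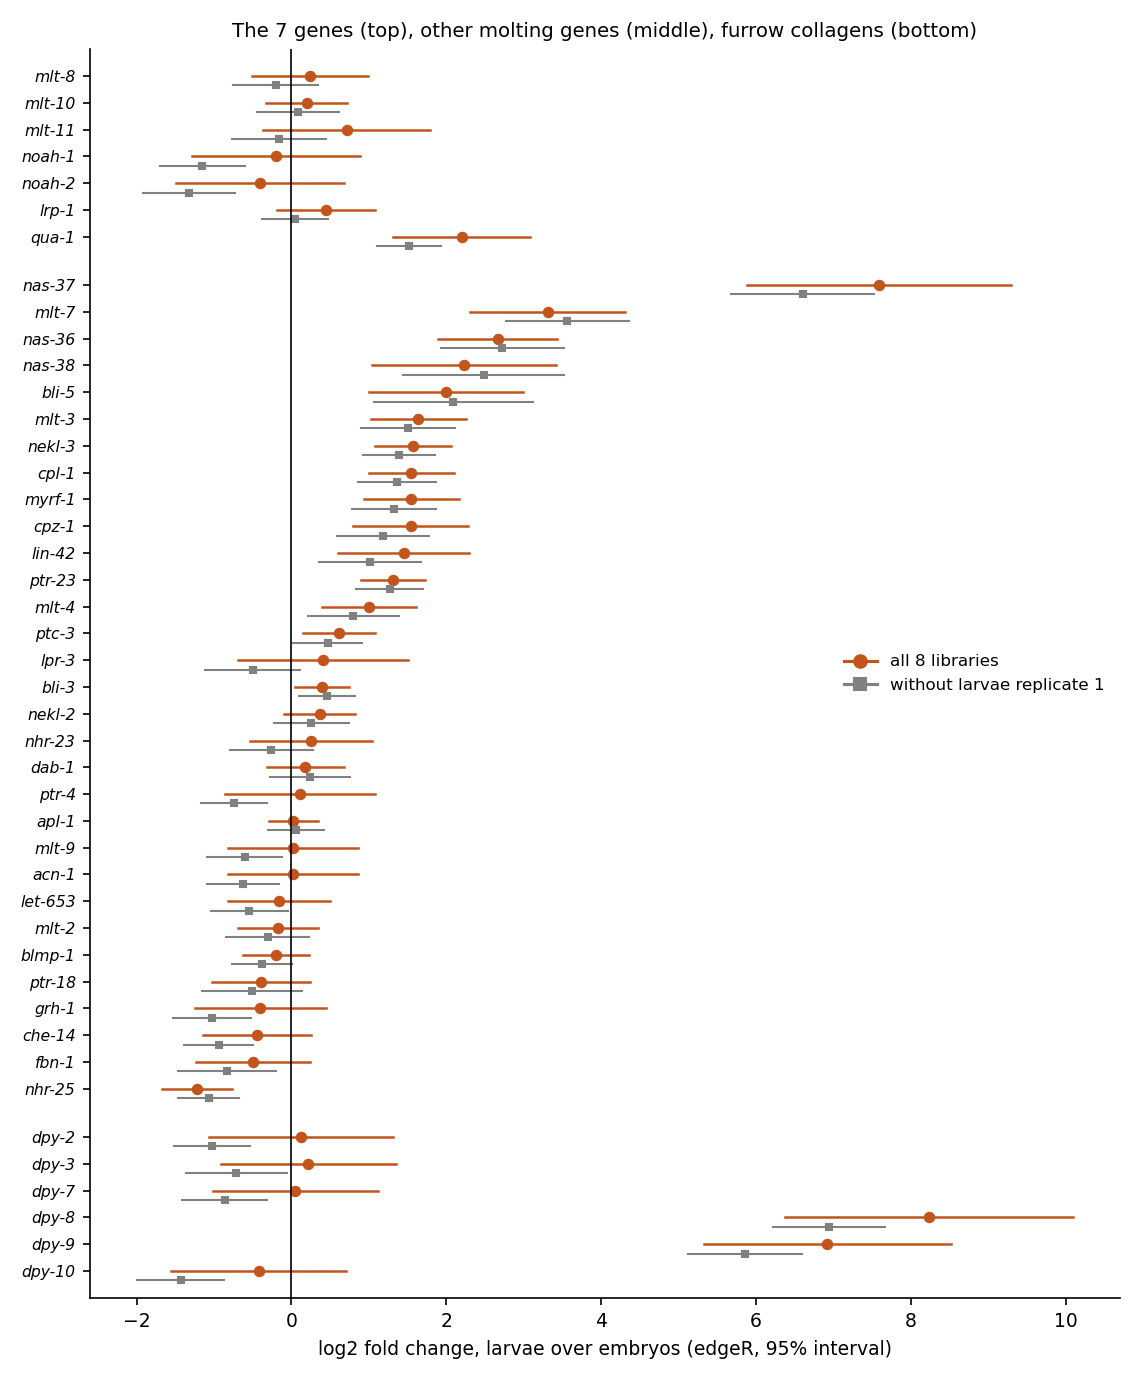
Log2 fold change of larvae over embryos with its 95% interval, derived from the edgeR test. Rows are the 7 genes (top), 31 other molting genes (middle) and 6 furrow collagens (bottom). Orange circles are the fit with all 8 libraries and grey squares the fit without larvae replicate 1. The intervals of *noah-1* and *noah-2* span 0 with all 8 libraries and lie below 0 without larvae replicate 1, and that of *qua-1* lies above 0 in both.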

How the data were processed

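Whole-worm poly(A) RNA was measured in 4 larvae and 4 embryo libraries. Per the study's methods, the authors aligned single-end reads to WS220 with Tophat and deposited raw counts per gene from HTSeq (version 0.6.1p1 per the labels). Libraries were stranded. The authors also deposited TPM, scaled for length and library size. The labels list Cufflinks 2.2.0 among the processing tools, and whether it made the TPM was not established here. TPM was not a plain rescaling of the counts, since the maternal gene *nos-2* had 0 counts and 0.261 TPM in larvae replicate 3. The TPM table has 14 columns of other libraries, which were not used, and 2 gene names listed more than once, which were dropped. The deposited tables of the authors' strain comparison hold DESeq2 fold changes and p-values and were not used. The 5 summary rows were left out. No-feature reads made up 3.26% to 6.06% and ambiguous reads 0.861% to 1.07% of reads. Starts in the files count from 0, and 1 was added. Symbols came from RefSeq, matched for 19879 of 20389 genes.

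Larvae were tested against embryos with edgeR 4.0.16 (glmQLFit, glmQLFTest, TMM, filterByExpr; R 4.3.3, limma 3.58.1) over 13571 genes, with Benjamini-Hochberg adjustment and a threshold of 0.05, after tests on simulated data. Shares and ratios were compared by exact permutation tests over 70 regroupings (Python 3.11.15, scipy 1.17.1). Alternatives were DESeq2 1.42.0, library totals, no filter, a replicate block, each library left out, other minimum levels and, chosen after seeing the data, limma on log2(TPM + 1). The rule for named genes took the 7, the other molting genes called with the 3 largest rises and falls (1 gene fell), *nhr-23*, *lin-42*, *dab-1* and *nas-37*, the 8 genes nearest in pattern, and the furrow collagens as a group. The other molting genes named by their calls without larvae replicate 1, or as highest in larvae replicate 2, are outside this rule and were picked once their values had been seen. The 8 nearest genes had a mean of at least 10 CPM and a highest to lowest ratio of at least 2 in larvae. The genes and lists were chosen with earlier results of these data known. Poisson errors cover counting error only, since PCR copies were not marked.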

Additional observations from a re-analysis of the deposited data

Results flagged for a closer look

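In 44 groups of 4 libraries, the highest or lowest library was tested for a gap to the nearest of the others that was large for the group's range (Dixon's test). Such a gap was found in 9 groups. Chance would give about 2.2 if TPM were normally distributed. The TPM values were not log-transformed, and the groups share libraries and genes, so the 9 cannot be set against that number. Larvae replicate 1 stood apart for *noah-1* (383 TPM, others 50.9 to 102 TPM), *lrp-1* (32.6 TPM, others 12.7 to 15.4 TPM) and *qua-1* (131 TPM, others 32.4 to 46.5 TPM). It also stood apart for the summed furrow collagens (2314 TPM, others 261 to 558 TPM) and the summed matrix and membrane proteins among the other molting genes (1088 TPM, others 410 to 523 TPM). Embryo replicate 1 stood apart for *qua-1* (30.5 TPM, others 21.3 to 22.6 TPM), the summed body-wall muscle markers (374 TPM, others 265 to 268 TPM) and the summed patched-related genes (290.2 TPM, others 177 to 194 TPM). Embryo replicate 2 stood apart for the summed adult markers (43.2 TPM, others 0.384 to 5.19 TPM).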

How the results depend on the processing

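Over the alternatives, *qua-1* stayed higher in larvae and past the threshold, with log2 fold changes of 1.06 (limma on TPM) to 2.43. Library totals gave -0.26 for *mlt-8*, -0.30 for *mlt-10* and -0.061 for *lrp-1*, and called 7 other molting genes lower, in place of 1. Limma on log2(TPM + 1), added after seeing the data, gave -0.78 for *mlt-8*, -0.65 for *mlt-10* (adjusted p = 0.0264), -0.82 for *mlt-11* and -0.46 for *lrp-1*, against the all-gene median of -0.82. It called *noah-1* (-1.53, adjusted p = 0.0169) and *noah-2* (-1.69, adjusted p = 0.0102) lower, 2816 genes higher and 7612 lower in place of 5004 and 5054, and 6 other molting genes higher and 13 lower.

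Leaving out each library in turn gave log2 fold changes of -0.20 to 0.46 for *mlt-8*, 0.04 to 0.34 for *mlt-10*, -0.16 to 1.02 for *mlt-11*, -1.15 to 0.11 for *noah-1*, -1.32 to -0.10 for *noah-2*, 0.05 to 0.58 for *lrp-1* and 1.52 to 2.43 for *qua-1*. It gave 13 to 15 other molting genes higher and 1 to 8 lower, with 8 lower without larvae replicate 1. The ratios of the highest to the lowest larvae library were 2.24 to 3.53 for *mlt-8*, 1.63 to 1.84 for *mlt-10*, 2.75 to 8.47 for *mlt-11*, 2.31 to 8.14 for *noah-1*, 2.51 to 8.45 for *noah-2*, 1.22 to 2.43 for *lrp-1* and 1.66 to 4.39 for *qua-1*. A minimum of 10 CPM left 894 genes as near in pattern as a gene of the 7, in place of 1476, since fewer genes were compared.

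The deviations of same-numbered larvae and embryos had correlations across genes of -0.131, -0.203, 0.102 and -0.0412. Those of differently numbered libraries were -0.157 to 0.239. These values cannot tell whether the numbers pair the libraries, since the labels give no pairing to set them against. A replicate block called 9768 genes in place of 10058, gave *qua-1* 1.94 (adjusted p = 0.000522) and changed no call among the 7. With 3 libraries against 4, no exact test of a share can pass 0.05. Counting error was at most 2.63% for the 7 genes.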
